A study of Mus musculus with 6 samples.

Results

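Before a glycoprotein reaches the surface of a T cell, the sugar tree on its asparagines is trimmed and rebuilt, and the transcripts of 9 enzymes of that route were followed here: *Mgat1*, *Mgat2*, *Mgat4a*, *Mgat4b*, *Mgat5*, *Man1a*, *Man1a2*, *Man2a1* and *Ganab*. They are defined by a list of gene symbols, and all 9 were found among the 24420 genes of the deposited table. In the endoplasmic reticulum *Ganab*, the catalytic subunit of glucosidase II, removes glucose from the new N-glycan, and in the Golgi the class I mannosidases encoded by *Man1a* and *Man1a2* remove mannose. MGAT1 then adds the GlcNAc that starts the first branch, *Man2a1* (mannosidase II) trims further mannose, and MGAT2, MGAT4A or MGAT4B, and MGAT5 add the later branches. Only the 5 *Mgat* enzymes use UDP-GlcNAc, the sugar donor that O-GlcNAc transferase (OGT) also uses, whereas the other 4 are hydrolases that use no sugar donor. Highly branched N-glycans on T-cell receptors and cytokine receptors are bound by galectins and are known to tune how strongly T cells respond. The 5 *Mgat* enzymes thus use, in the Golgi, the donor of the reaction that was removed in the OGT-deficient cells.

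RNA sequencing covered 6 samples of YFP+ regulatory T (Treg) cells, sorted from the lymph nodes of female C57BL/6 mice after CD4 bead selection. The 3 OGT-deficient samples came from Foxp3YFP-Cre/wt Ogtfl/fl mice and the 3 OGT-sufficient samples from Foxp3YFP-Cre/wt Ogtwt/fl mice, so the controls carried Cre and 1 floxed *Ogt* allele as well. Cre is fused to YFP at the *Foxp3* locus on the X chromosome and the females were heterozygous for it, so other Treg cells of the same mouse kept *Ogt*. The OGT-deficient females were described as healthy. The labels give no treatment and no age for them, and the methods give a single young adult age range, in weeks, for mice outside the male lines unless otherwise stated. The comparison asks whether the enzymes that draw on the same sugar donor were expressed at another level when OGT was lost.

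Total counts were between 3375454 and 4103552 per sample. Of these, 24.2% to 37.1% belonged to the ribosomal RNA entry *Rn45s*, with the lowest share in OGT-sufficient replicate 3. Levels are given as CPM, computed on library sizes scaled by the TMM method. Values of single samples are listed for replicates 1, 2 and 3 in that order, first with OGT (OGT-sufficient) and then without it (OGT-deficient). The targeted gene *Ogt* fell short of a false discovery rate (FDR) of 0.1, with 150, 170 and 251 CPM against 84.0, 67.0 and 96.0 CPM (log2 fold change -1.21, standard error 0.21, adjusted p = 0.191), and its groups did not overlap. The adjusted p of *Ogt* lay between 1.62e-05 and 0.764 under the alternatives and passed in 4 of 15, while its unadjusted p was at most 0.002 in all 15. All 7 Treg markers searched were present in all samples, with *Foxp3* at 189 to 299 CPM and overlapping groups. *Il2ra* was at 487, 607 and 327 CPM with OGT against 648, 625 and 649 CPM without it (log2 fold change 0.44, adjusted p = 0.704), without overlap. Of the 7 Treg markers 6 had a log2 fold change above 0, *Tnfrsf18* also had no overlap (0.57, unadjusted p = 0.0439) and *Ikzf2* had a negative one (-0.26). So were all 10 macrophage markers searched, none of them at 0 in any sample, with *Vcam1* at 439 to 2250 CPM. Their summed level was 3840, 3410 and 1820 CPM with OGT against 1350, 4730 and 5470 CPM without it, so the lowest and the highest of the 6 were both OGT-deficient. OGT-sufficient replicate 3 stood apart from the other samples, with a count in 18346 genes against 14412 to 15197 elsewhere and with neutrophil markers (5 of 5 measured) summing to 276 CPM against 11.1 to 32.2 CPM. It also had the highest sums of B-cell markers (308 against 85.0 to 147 CPM) and of red cell precursor markers (846 against 217 to 480 CPM), and all 6 B-cell and all 5 red cell markers had negative log2 fold changes (medians -0.809 and -0.621, *Cd79b* alone with an unadjusted p under 0.05, 0.0311). CD8 and NK cell markers summed to 17.7 to 34.6 CPM, with *Nkg7* lower in all OGT-deficient samples (log2 fold change -1.0, unadjusted p = 0.00751). *Cd8a* (log2 fold change -0.82) and *Cd8b1* (0.18) had overlapping groups, and *Ncr1* and *Klrb1c* had too few counts to be tested. In RNA of sorted cells in bulk, fewer cells of a type and less RNA per cell cannot be told apart.

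The enzymes include 2 pairs of paralogs, *Mgat4a* with *Mgat4b* and *Man1a* with *Man1a2*, and whether reads of 50 bases can separate them bears on every value below. In the GENCODE M21 transcripts, 0 of the 50-base windows of *Mgat1*, *Mgat4a*, *Mgat4b* and *Man1a2* occurred in a transcript of any other gene, and no enzyme of the 9 shared a window with another of the 9. Over the aligned coding bases, *Mgat4a* and *Mgat4b* were 66.4% identical and *Man1a* and *Man1a2* 65.5%. The longest stretch of coding sequence that *Mgat4a* and *Mgat4b* share letter for letter was 23 bases, and that of *Man1a* and *Man1a2* was 16 bases. The windows of 1 read length around these stretches are printed because they hold the longest run of letters that the coding sequences of a pair share. Shorter runs shared by the untranslated parts were not searched. They are from the coding strand, 5′ to 3′, and capitals mark the bases that differ within the pair, 10 in the first pair and 15 in the second.
Mgat4a: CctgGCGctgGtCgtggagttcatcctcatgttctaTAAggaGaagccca
Mgat4b: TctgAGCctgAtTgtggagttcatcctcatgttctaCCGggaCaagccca
Man1a: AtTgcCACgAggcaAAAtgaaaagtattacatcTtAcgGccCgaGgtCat
Man1a2: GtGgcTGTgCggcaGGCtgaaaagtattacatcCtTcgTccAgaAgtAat
Counted from the first base of the coding sequence, the windows are bases 912 to 961 of *Mgat4a*, 933 to 982 of *Mgat4b*, 1603 to 1652 of *Man1a* and 1555 to 1604 of *Man1a2*. Between 0.0722% and 1.04% of the windows of the other 5 enzymes occurred in another gene, nearly all of them in genes read from the opposite strand. Apart from 4 windows of *Ganab* and a few of *Mgat5*, they lay in *Tmem163* for *Mgat5*, *Gm16998* for *Man1a*, *Gm17133* for *Man2a1* and *Gm49383* for *Mgat2*, each overlapping an exon, and the strand setting of the authors' counting is not given in the sources used here, so those reads cannot be told apart.

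All 9 enzymes passed the low-count filter and were tested among 10949 genes. None passed an FDR of 0.1 and none had an unadjusted p under 0.05, where 0.0274% and 7.10% of all genes tested did. The lowest unadjusted p of the 9 was 0.160, for *Man1a*. The median log2 fold change of the 9 was 0.018 against -0.017 over all genes tested, with 7 of the 9 above 0 and 2 below. Scaled to library size alone, these medians were -0.023 and -0.061, and with *Rn45s* left out of the library size 0.011 and -0.024. A p above a threshold does not show equal levels, and the intervals say how large a difference these samples leave possible. For 8 of the 9 enzymes the 95% interval of the fold change lay within 1.5-fold in either direction, as it did for 42.6% of all genes tested and for 55.9% of the 7299 genes whose mean level lay within the range of the 9. The exception was *Mgat4b*, which alone set the low end of that range (10.3 CPM, against 29.8 CPM for the next enzyme, *Mgat4a*). The median standard error was 0.172 in the 7299 genes and 0.15 in the 9, so their shares are not of like precision. With 1 sample left out, the count of enzymes with such an interval was between 5 and 8, lowest without OGT-sufficient replicate 1. By contrast, both enzymes of O-GlcNAc cycling were lower in all OGT-deficient samples, *Ogt* as given above and *Mgea5*, which encodes the O-GlcNAc hydrolase OGA, by 0.82 on the log2 scale (297 ± 39.3 against 168 ± 13.3 CPM, SD, n = 3 each, adjusted p = 0.191, between 0.000786 and 0.763 under the alternatives). *Mgea5* shares exon bases with an antisense gene.

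**Figure D1:**
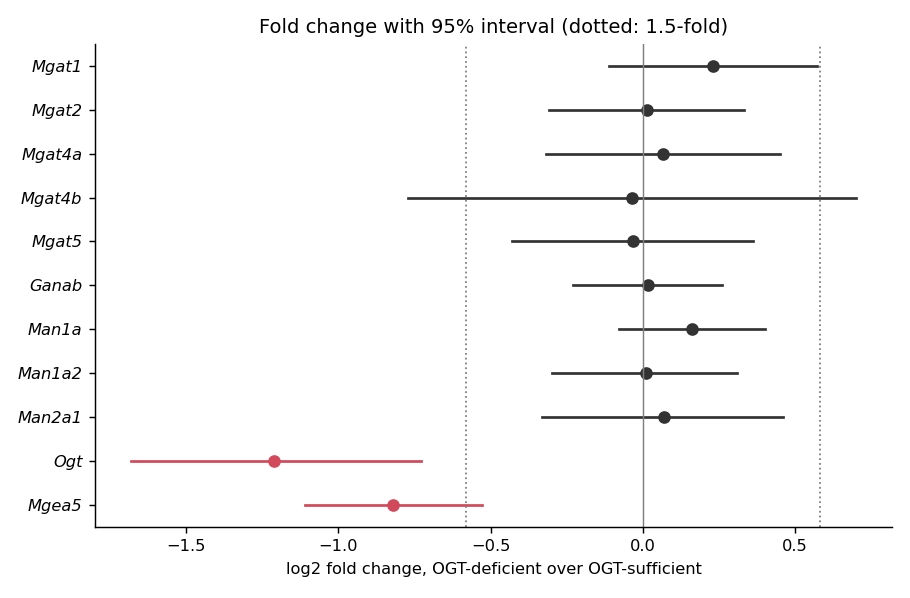
Log2 fold change (horizontal axis, OGT-deficient over OGT-sufficient) of each enzyme in black and of *Ogt* and *Mgea5* in red, as points with 95% intervals from edgeR's quasi-likelihood fit. The dotted lines mark 1.5-fold. The intervals of the 9 enzymes all include 0 and 8 of them end inside the dotted lines, while those of *Ogt* (-1.68 to -0.73) and *Mgea5* (-1.11 to -0.53) lie below 0.

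*Mgat1* (chr11:49244191-49263030, plus strand, GRCm38) encodes the transferase without which no complex branch is made. Its counts were 150, 162 and 128 with OGT against 201, 171 and 162 without it, or 39.9, 43.5 and 33.6 CPM against 51.6, 43.1 and 42.3 CPM. OGT-sufficient replicate 3 was the lowest and OGT-deficient replicate 1 the highest, and the groups overlapped. It had the largest fold change of the 9, 1.17-fold with a 95% interval from 0.926 to 1.48 (log2 fold change 0.23, standard error 0.15, adjusted p = 0.776).

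*Mgat2* (chr12:69184157-69186770, plus strand), a gene of a single exon, encodes the transferase that starts the second branch. Its levels were 64.9, 70.0 and 52.2 CPM with OGT against 58.6, 63.0 and 67.3 CPM without it. The OGT-deficient values all lay within the OGT-sufficient range. The fold change was 1.01 (interval 0.809 to 1.26, log2 fold change 0.014, standard error 0.14, adjusted p = 0.984).

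*Mgat4a* (chr1:37439340-37541016, minus strand) and *Mgat4b* (chr11:50210890-50235103, plus strand) encode alternative transferases for the same branch. *Mgat4a* was at 30.3, 22.8 and 34.1 CPM with OGT against 31.1, 29.2 and 31.1 CPM without it, all of the latter inside the range of the former. The coefficient of variation of *Mgat4a* was 19.8% in the OGT-sufficient group and 3.50% in the OGT-deficient group, and the fold change was 1.05 (interval 0.801 to 1.37, adjusted p = 0.944). *Mgat4b* was read from only 43, 45 and 30 counts against 29, 31 and 59, or 11.4, 12.1 and 7.87 CPM against 7.45, 7.81 and 15.4 CPM. OGT-deficient replicate 3 was about the sum of the other 2 of its group. At this depth counting error alone is 15.9% of the mean *Mgat4b* count, and the interval of its fold change ran from 0.585 to 1.63, the widest of the 9 (log2 fold change -0.035, standard error 0.33, adjusted p = 0.983).

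*Mgat5* (chr1:127205015-127488336, plus strand) encodes the transferase whose branch is the one most extended and most bound by galectins. Its levels were 97.4, 88.8 and 66.1 CPM with OGT against 67.8, 91.5 and 87.4 CPM without it. In each group 1 sample was low, OGT-sufficient replicate 3 and OGT-deficient replicate 1. These are also the 2 samples with the least macrophage marker RNA. *Mgat5* was highest, however, in OGT-sufficient replicate 1 (macrophage markers at 3840 CPM), not in OGT-deficient replicate 3, which had the most (5470 CPM). A link was not tested. The fold change was 0.978 (interval 0.743 to 1.29, log2 fold change -0.032, standard error 0.18, adjusted p = 0.975).

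Of the 4 trimming enzymes, *Ganab* (chr19:8898071-8916672, plus strand) was at 103, 96.8 and 103 CPM with OGT against 102, 109 and 95.5 CPM without it. It had the narrowest range of the 9 relative to its level and a fold change of 1.01 (interval 0.854 to 1.20, adjusted p = 0.977). *Man1a2* (chr3:100562208-100685503, minus strand) was at 101, 112 and 138 CPM against 112, 119 and 122 CPM. OGT-sufficient replicate 3 was the highest *Man1a2* sample, above all OGT-deficient samples, and the fold change was 1.01 (interval 0.815 to 1.24, adjusted p = 0.990).

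*Man1a* (chr10:53904785-54076609, minus strand), the paralog of *Man1a2*, was the one enzyme whose groups did not overlap. Its counts were 379, 403 and 394 with OGT against 473, 468 and 421 without it, or 101, 108 and 103 CPM against 122, 118 and 110 CPM. Every OGT-deficient sample was above every OGT-sufficient sample, but the gap between the nearest 2 samples was small. The fold change was 1.12 (interval 0.948 to 1.32, log2 fold change 0.16, standard error 0.11, adjusted p = 0.776). Among all genes tested 13.2% had groups without overlap, and 5.72% had them with OGT-deficient above, so 1 of 9 is near the background. Scaled to the library size alone, the *Man1a* groups overlapped too. They did not overlap when *Rn45s* was left out of the library size, nor when scaled by DESeq2 size factors. The 3 genes whose level followed that of *Man1a* most closely over the 6 samples were *Arpc5l*, *Rasgrp1* and *Crkl*, at a root mean square difference of 0.023, 0.031 and 0.032 in centred log2 CPM. None of the 3 passed an FDR of 0.1 (lowest adjusted p = 0.757, *Crkl*). The nearest of the other 8 enzymes was *Ganab* (0.1, rank 536 among the genes tested) and the farthest *Mgat4b* (0.425, rank 9048).

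*Man2a1* (chr17:64600736-64755110, plus strand) had the most counts of the 9 and the widest spread among the trimming enzymes. Its counts were 709, 733 and 671 with OGT against 564, 807 and 920 without it, or 189, 197 and 176 CPM against 145, 203 and 240 CPM. The OGT-deficient samples spread over a coefficient of variation of 24.5% against 5.59% in the OGT-sufficient group, and the lowest and the highest of all 6 were both OGT-deficient. The fold change was 1.05 (interval 0.797 to 1.38, log2 fold change 0.068, standard error 0.17, adjusted p = 0.944). The lowest sample, OGT-deficient replicate 1, also had the least macrophage marker RNA, and the highest, OGT-deficient replicate 3, had the most. With the macrophage level as a covariate the log2 fold change of *Man2a1* was -0.017 in place of 0.068. That of *Mgat5* was -0.088 in place of -0.032, and that of *Mgat4b* was -0.137 in place of -0.035. Those of the other enzymes moved less. *Mgat2* went from 0.014 to -0.013, *Mgat4a* from 0.066 to 0.087 and *Man1a2* from 0.01 to 0.026. *Mgat1* went from 0.229 to 0.235, *Man1a* from 0.162 to 0.169 and *Ganab* from 0.018 to 0.019. Like *Man2a1*, *Mgat4b* was lowest in OGT-deficient replicate 1 (7.45 CPM) and highest in replicate 3 (15.4 CPM). In OGT-deficient replicate 2, where macrophage markers summed to 4730 CPM, *Mgat4b* was at only 7.81 CPM. The part of macrophage RNA in these levels was not tested.

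**Figure D2:**
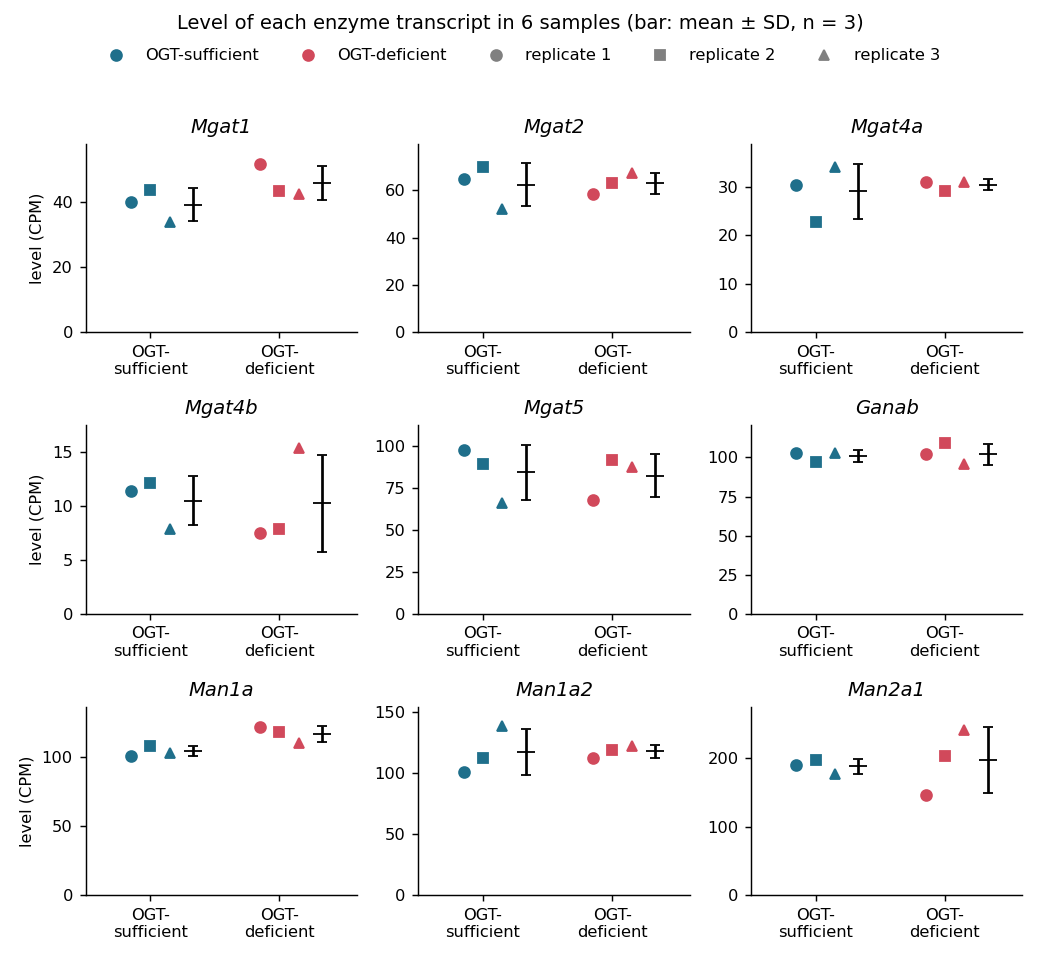
Level of each of the 9 transcripts (vertical axes, CPM, starting at 0) in the OGT-sufficient samples in blue and the OGT-deficient samples in red, with the replicate number as the symbol and the mean ± SD (n = 3) in black. The groups overlap in 8 panels, and in the *Man1a* panel the OGT-deficient samples (110 to 122 CPM) sit above the OGT-sufficient samples (101 to 108 CPM).

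**Figure D3:**
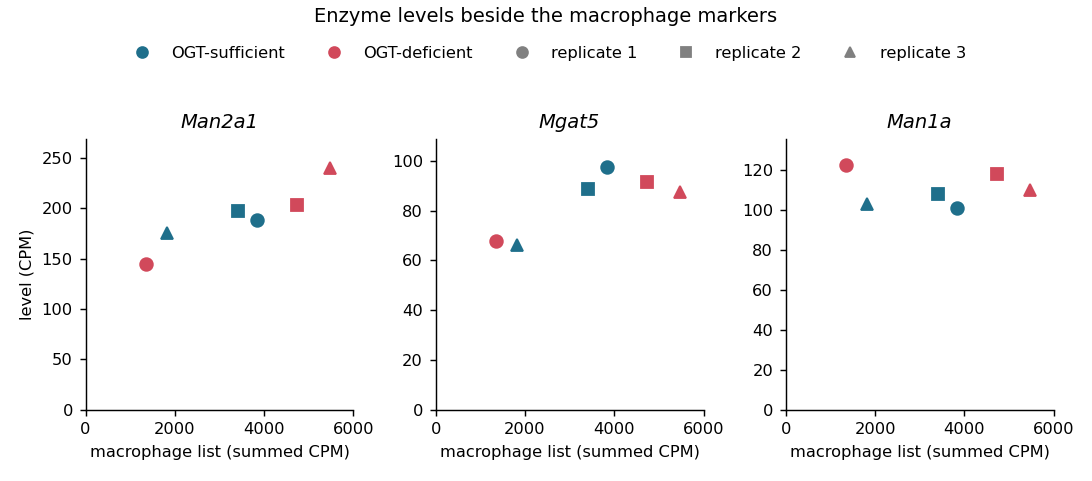
Level of *Man2a1*, *Mgat5* and *Man1a* (vertical axes, CPM) against the summed level of 10 macrophage markers (horizontal axes, CPM), 1 point a sample. *Man2a1* is lowest (145 CPM) at the lowest macrophage level (1350 CPM) and highest (240 CPM) at the highest (5470 CPM). *Mgat5* is low in the 2 samples with the lowest macrophage levels (1350 and 1820 CPM) and highest (97.4 CPM) at 3840 CPM. *Man1a* is highest (122 CPM) at the lowest macrophage level.

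Compared per kilobase of exon, the transcripts were ranked by mean level, with overlap between some neighbours. *Man2a1* was the highest with 26.5 CPM per kilobase on average over the 6 samples, followed by *Mgat2* with 24.0 and *Ganab* with 18.6. *Man1a2* followed with 14.7 CPM per kilobase, *Man1a* with 11.4, *Mgat1* with 8.94 and *Mgat5* with 8.08. The *Mgat4* genes were last, *Mgat4b* with 3.80 and *Mgat4a* with 2.31 CPM per kilobase. The ranges of the samples overlapped between the neighbours *Man2a1* and *Mgat2*, *Man1a* and *Mgat1*, and *Mgat1* and *Mgat5*, and they did not overlap between the other neighbours. *Man2a1* stood above 89.3% of the tested genes with a known length and *Mgat4a* above 23.3%. The enzyme that opens the branching route, *Mgat1*, was thus at a lower level per length than *Mgat2* in all samples, and at about the level of *Mgat5*. These values rest on the union of all annotated exons, 12881 bases in *Mgat4a* and 2719 in *Mgat4b*, so a gene with long exons that these cells do not use is understated.

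**Figure D4:**
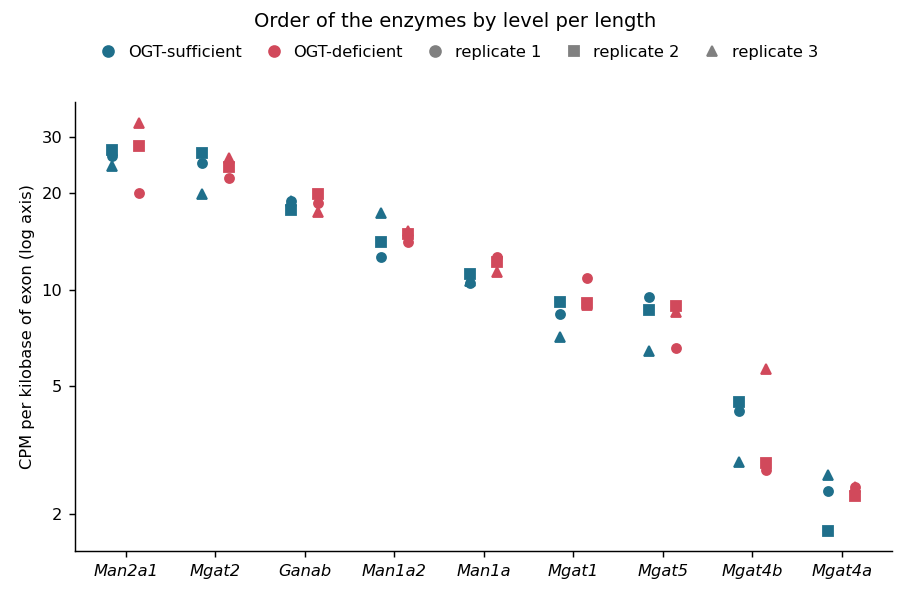
Level per kilobase of exon (vertical axis, CPM per kilobase, log scale) of the 9 transcripts in order of their mean, 1 symbol a sample, blue for OGT-sufficient and red for OGT-deficient. The blue and red symbols of a transcript lie together, while the transcripts run from 26.5 CPM per kilobase (*Man2a1*) to 2.31 (*Mgat4a*).

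Ratios between 2 enzymes of the same library do not depend on how libraries are scaled. The log2 ratio of *Mgat4a* to *Mgat4b* per kilobase was -0.84, -1.33 and -0.13 with OGT against -0.18, -0.34 and -1.23 without it, and the groups overlapped. In raw counts, *Mgat4a* had between 1.89 and 4.33 times the reads of *Mgat4b*, with the lowest and the highest value in OGT-sufficient samples. The log2 ratio of *Man1a* to *Man1a2* per kilobase was -0.43 ± 0.22 in OGT-sufficient and -0.29 ± 0.14 in OGT-deficient samples (SD, n = 3 each), and the groups overlapped. The log2 ratio of *Mgat5* to *Mgat1* per kilobase was 0.17, -0.09 and -0.14 against -0.73, -0.03 and -0.07. OGT-deficient replicate 1, where *Mgat1* was highest and *Mgat5* low, had by far the lowest *Mgat5* to *Mgat1* ratio, and the other 2 OGT-deficient samples lay within the OGT-sufficient range. The difference between the group means of that ratio was -0.26, and without OGT-deficient replicate 1 it was -0.03. Summed over the 5 transferases, the level was 225 ± 27.3 CPM in OGT-sufficient and 232 ± 13.7 CPM in OGT-deficient samples, and over the 4 trimming enzymes it was 509 ± 13.5 and 532 ± 46.1 CPM (SD, n = 3 each).

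The sample that stood apart was also at the edge most often. OGT-sufficient replicate 3 was the lowest of the 6 samples in 3 enzymes (*Mgat1*, *Mgat2* and *Mgat5*) and the highest in 2 (*Mgat4a* and *Man1a2*). OGT-deficient replicate 1 was the highest in *Mgat1* and *Man1a* and the lowest in *Mgat4b* and *Man2a1*. Without OGT-sufficient replicate 3 none of the 9 had an unadjusted p under 0.05.

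The rest of the N-glycan route was read from 75 further genes, of which 68 were tested. None of the 68 had an unadjusted p under 0.05, against 4.01% of all genes tested that were lower and 3.09% that were higher in OGT-deficient samples. Their median log2 fold change was 0.033, with 40 above 0 and 28 below, and 4 of them had groups that did not overlap, below the 13.2% of all genes. The lowest unadjusted p was 0.0522. It belonged to *Gfpt1*, the rate-limiting enzyme of the pathway that makes UDP-GlcNAc, at 81.4, 84.5 and 65.5 CPM with OGT against 96.3, 105 and 85.9 CPM without it (log2 fold change 0.31, standard error 0.14, adjusted p = 0.699). Under 6 of the 15 alternatives the unadjusted p of *Gfpt1* was under 0.05, with a range of 0.0291 to 0.144 over the 15, and it passed an FDR of 0.1 under none. All OGT-deficient samples were above all OGT-sufficient samples in *Gfpt1*. Of the same supply route, *Pgm3*, which converts GlcNAc-6-phosphate, had no overlap in the other direction (13.4 ± 1.34 against 10.7 ± 0.827 CPM, SD, n = 3 each, adjusted p = 0.759). *Pgm3* shares up to 1027 exon bases with *Dop1a* on the opposite strand. *Slc35a3*, a Golgi transporter of UDP-GlcNAc, was at 28.1 ± 2.72 and 27.9 ± 5.42 CPM (adjusted p = 0.990). The other genes without overlap were *Alg6*, a glucosyltransferase of the lipid-linked precursor (log2 fold change -0.50, adjusted p = 0.755), and *Slc35a1*, the Golgi transporter of CMP-sialic acid (0.22, adjusted p = 0.805).

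Intervals within 1.5-fold were found for 32 of the 68 (47.1%). In precursor assembly and the oligosaccharyltransferase, which moves the precursor onto the protein, 30 of 31 genes were tested with a median log2 fold change of 0.036. Its most abundant genes, *Stt3b* (a catalytic subunit) and *Rpn1*, had log2 fold changes of -0.030 and -0.087. Among other trimming and core enzymes 7 of 10 were tested, with a median of 0.003, and *Prkcsh*, the partner subunit of *Ganab* in glucosidase II, was at 89.7 ± 5.67 and 85.9 ± 2.62 CPM while *Mogs* (glucosidase I) was at 52.3 ± 6.40 and 55.8 ± 4.28 CPM (SD, n = 3 each). The 3 untested genes of that list were further members of the *Mgat* family, named after their values were seen. *Mgat3*, which adds the bisecting GlcNAc, had at most 2 counts per sample, *Mgat4c* at most 1 and *Mgat5b* at most 3, so none was above the floor of 3 counts (0.756 to 0.805 CPM) and they were not detectable at this depth.

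Among the 11 tested genes of antenna extension the median log2 fold change was 0.021, and *St6gal1*, which caps antennae with sialic acid, was at 170 ± 20.3 and 191 ± 28.7 CPM and *B4galt1*, which adds galactose, at 96.8 ± 18.7 and 100 ± 2.38 CPM (SD, n = 3 each). The lectin chaperones *Calr* and *Canx*, which bind trimmed glycans during folding, had log2 fold changes of -0.025 and 0.068, and the 10 genes of that list had a median of 0.053. Of the 4 galectins, *Lgals9* was at 98.4 ± 17.4 and 123 ± 24.1 CPM (adjusted p = 0.755) and *Lgals1* at 90.2 ± 29.6 and 83.1 ± 14.6 CPM (adjusted p = 0.927), with samples that overlapped between the groups. The lowest and highest log2 fold changes over the 68 genes were -0.84 for *St3gal6* (interval -1.83 to 0.14), which had 8 to 26 counts per sample, and 0.37 for *Krtcap2* (interval -0.27 to 1.01). *St3gal6* shares up to 1603 exon bases with *Dcbld2* and *Krtcap2* up to 239 with *Trim46*, both on the opposite strand.

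**Figure D5:**
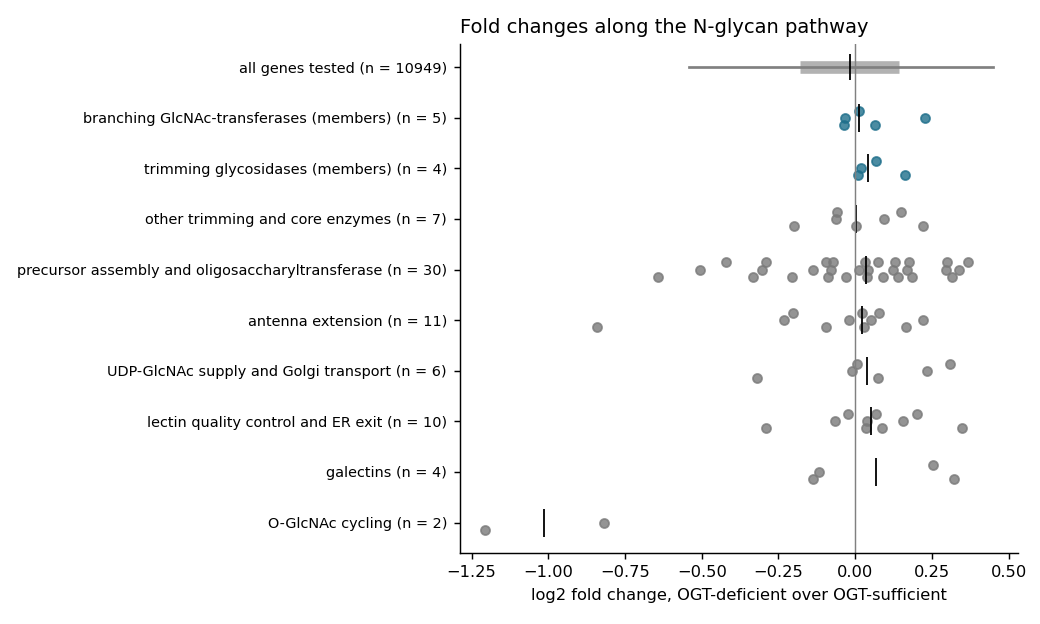
Log2 fold change (horizontal axis, OGT-deficient over OGT-sufficient) of every tested gene of 9 gene lists, 1 point a gene, blue for the 9 enzymes and grey for the others, with the list median as a black tick. The top row gives all 10949 genes tested (grey box 25th to 75th percentile, line 5th to 95th). The medians of the 8 N-glycan lists lie between 0.003 and 0.068, while *Ogt* and *Mgea5* lie at -1.21 and -0.82.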

How the data were processed

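The authors isolated RNA with the RNeasy Plus Micro Kit and sequenced paired-end reads of 50 bases on an Illumina HiSeq instrument. Per the labels and methods, reads were trimmed with Trimmomatic 0.33, checked with FastQC and aligned with Bowtie2 2.2.4.0 to mm10. The methods name Cuffquant for quantification and the submitters' processing notes featureCounts. The handling of reads shared between genes is not given in the sources used here. The deposited table holds a whole-number count per gene symbol and sample without normalization. It also holds the authors' own fold changes and p-values, which were not used here.

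Groups were taken from the sample titles. Tests were run with edgeR 4.0.16 under R 4.3.3 (quasi-likelihood test, TMM scaling, filterByExpr at a minimum count of 10, no block) and Benjamini-Hochberg adjustment over 10949 genes. Standard errors were derived from F (the absolute log2 fold change divided by its root), and 95% intervals use the t quantile at the fit's degrees of freedom. The labels do not say that the samples of a group came from separate mice, so p-values measure only the spread between these samples, which may be technical. The replicates differed by more than sampling noise (chi-square per degree of freedom 3.31 to 22.0). Exon lengths and positions were taken from GENCODE M21 (GRCm38, the same build as mm10), in which 24010 of 24420 symbols matched a single gene. The fits were tested on simulated counts. Alternatives were DESeq2 1.42.0, edgeR's exact test, other scalings and filters, the replicate block, a macrophage covariate and leaving out each sample. The count of intervals within 1.5-fold was added after seeing the data.

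The enzymes and the gene lists were chosen with earlier results of these data known. The text names the 9 enzymes, *Ogt*, from each pathway list every gene with an unadjusted p under 0.05 and the 2 with the highest mean CPM, and the 3 genes nearest in profile to the enzyme with the lowest p. The genes without overlap and the extremes of the lists were named after their values were seen. Marker lists of other cell types were summed per sample, and single markers were named after their values were seen.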

Additional observations from a re-analysis of the deposited data

How the results depend on the processing

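In the reported test and in each of the 15 alternatives, 0 of the 9 enzymes reached an unadjusted p under 0.05 or an FDR of 0.1, and the largest log2 fold change of any of them was 0.42 in size (*Mgat4b* without OGT-deficient replicate 3). Of 135 fold changes recomputed, 114 kept their sign and 21 did not, 14 of them with a sample left out. The other 7 were *Mgat2* (-0.023 with library size only, -0.013 with the macrophage covariate), *Ganab* (-0.027) and *Man1a2* (-0.051) with library size only, *Mgat4b* (0.009) and *Mgat5* (0.011) without a low-count filter, and *Man2a1* (-0.017) with the macrophage covariate. With a sample left out, log2 fold changes ranged from -0.091 to 0.108 for *Mgat2*, -0.078 to 0.206 for *Mgat4a*, -0.420 to 0.157 for *Mgat4b*, -0.171 to 0.124 for *Mgat5*, -0.006 to 0.097 for *Ganab*, -0.044 to 0.151 for *Man1a2* and -0.069 to 0.246 for *Man2a1*. *Man1a* (0.131 to 0.236) and *Mgat1* (0.132 to 0.317) stayed above 0. The median of the 9 ranged from 0.019 to 0.112, highest without OGT-sufficient replicate 1. The count of enzymes whose groups do not overlap was 0 with library size only and 1 to 2 with a sample left out. It was 1 (*Man1a*) with *Rn45s* left out of the library size and 1 with DESeq2 size factors. The count with an interval within 1.5-fold was 5 to 8 with a sample left out. The differences of the ratios ranged from -0.10 to 0.50 (*Mgat4a* to *Mgat4b*), 0.01 to 0.22 (*Man1a* to *Man1a2*) and -0.38 to -0.03 (*Mgat5* to *Mgat1*) with a sample left out.

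Over all genes, 777 had an unadjusted p under 0.05, against 1208 without a filter, 452 with DESeq2 and 462 to 889 with a sample left out. At an FDR of 0.1 there were 3, against 131 without a filter, 38 with DESeq2, 80 with the exact test, 31 with the macrophage covariate and 0 to 9 with a sample left out (0 without OGT-deficient replicate 2 or 3, with 462 and 742 at an unadjusted p under 0.05). Of the other N-glycan genes, 1 had an unadjusted p under 0.05 with DESeq2 size factors (*Gfpt1*), 2 without a filter (*Gfpt1* and *Lgals9*), 1 with the macrophage covariate (*Alg8*) and 0 to 3 with a sample left out. With a sample left out these were *Gfpt1* (without OGT-sufficient replicate 1 or 2 or OGT-deficient replicate 3), *B4galt4*, *Mcfd2*, *St3gal6*, *Lgals1* and *Lgals9*. Samples with the same replicate number did not deviate together (correlations -0.281, 0.00726 and -0.118), and 0 of the 6 samples correlated best with its own number. A fit with the replicate block called 0 genes at an FDR of 0.1, 679 had an unadjusted p under 0.05, and 2 other N-glycan genes did (*Gfpt1* and *Lgals9*). The cause of these shifts was not tested. Depth limits *Mgat4b* most, with 29 to 59 counts per sample.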
